A study of Mus musculus with 9 samples.

Results

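The cholesterol synthesis pathway was examined through 8 of its enzymes, Hmgcs1, Mvd, Fdps, Fdft1, Sqle, Lss, Cyp51 and Dhcr7, and through the transcription factor gene Srebf2. These 9 genes were taken by symbol from the 46095 genes of the count table, and all 9 passed the filter on low counts that left 14593 genes to test. RNA sequencing had been performed on intestinal epithelial cells (IECs) released with EDTA from the colon of C57BL/6J-background mice. In the S group (4 libraries, S-1 to S-4) Villin-Cre, which is active throughout the intestinal epithelium, deleted floxed Smad4, the shared mediator of TGF-beta and BMP signalling. In the DDKO group (5 libraries, DDKO-1 to DDKO-5) the same Cre deleted floxed Smad4 and floxed Setd2, the enzyme that trimethylates lysine 36 of histone H3. Both groups therefore carried the Smad4 deletion and no wild-type library was analysed here, so each comparison below sets Setd2-deleted against Setd2-intact cells on a Smad4-deleted background. All mice had been injected with azoxymethane (AOM, a carcinogen, 10 mg/kg) at 8 weeks of age and had drunk water with 2% dextran sodium sulphate (DSS, an agent that damages colon epithelium), and the cells were collected at 10 days of AOM/DSS. The labels number the libraries without naming the mice, so p-values measure the spread between these libraries.

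Cells build cholesterol from acetyl-CoA. HMG-CoA synthase (Hmgcs1) acts early on the way to mevalonate, Mvd and Fdps turn phosphorylated mevalonate into farnesyl diphosphate, Fdft1 joins farnesyl units into squalene, Sqle and Lss oxidize and close squalene into lanosterol, and Cyp51 to Dhcr7 trim and saturate lanosterol to cholesterol. When membrane sterol is low, SCAP escorts SREBP2, the product of Srebf2, from the endoplasmic reticulum to the Golgi, where it is cleaved into an active transcription factor that binds sterol regulatory elements, commonly beside a CCAAT box bound by NF-Y. INSIG proteins hold the complex back when sterol is plentiful. Fast-renewing intestinal epithelium makes cholesterol for new membrane and also takes it up from the lumen, with the transporters Abcg5 and Abcg8 pumping sterol back.

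The windows upstream of the genes were read first, because the pathway is known for its shared sequence elements. RefSeq promoter windows of GRCm38.p6, from 250 bases before to 50 after an annotated start, were found for 6 of the 9 genes (8 windows), all but Fdps, Fdft1 and Sqle. A sterol regulatory element spelled TCACNCCAC was searched on both strands together with the CCAAT box and the E-box, spelled CACGTG. The sterol regulatory element in this spelling was found in 1 of the 8 windows, that of Hmgcs1, against 1.24% of 32851 promoters. It began 137 bases before the start. Other spellings were not searched, so a window without a match could still hold such an element. CCAAT was found in 6 of the 8 windows, at least once in each of the 6 genes, against 37.4% of promoters, so that an element this short is frequent by itself. With the 13 other enzymes of the pathway added, 16 of 20 windows (80%) of 17 matched genes had CCAAT. The Hmgcs1 window had 4 CCAAT boxes, of which 1 begins at position 11 after the start and so lies beyond the stretch printed, the Mvd window and the last of the 3 Dhcr7 windows had 2 each, and the Cyp51 window had 1. The 250 bases before the start are shown for these 4 genes, which form 4 of the pairs whose ratios separated the genotypes below, in the direction of transcription, with the sterol regulatory element and the CCAAT box in capitals, the latter read as ATTGG where it lies on the other strand. The windows were chr13:119690101-119690350 (+ strand) for Hmgcs1, chr5:4104698-4104947 (- strand) for Cyp51, chr8:122443423-122443672 (- strand) for Mvd and chr7:143829964-143830213 (+ strand) for Dhcr7.
Hmgcs1: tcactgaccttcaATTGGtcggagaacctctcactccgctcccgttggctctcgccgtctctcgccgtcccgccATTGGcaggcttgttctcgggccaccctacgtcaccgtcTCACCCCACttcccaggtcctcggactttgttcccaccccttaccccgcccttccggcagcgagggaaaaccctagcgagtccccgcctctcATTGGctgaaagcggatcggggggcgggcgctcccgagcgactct
Cyp51: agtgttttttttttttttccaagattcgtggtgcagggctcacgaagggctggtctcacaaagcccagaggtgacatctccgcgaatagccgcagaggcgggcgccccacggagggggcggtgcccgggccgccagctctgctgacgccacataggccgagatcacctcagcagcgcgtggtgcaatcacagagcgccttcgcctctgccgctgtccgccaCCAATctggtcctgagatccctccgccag
Mvd: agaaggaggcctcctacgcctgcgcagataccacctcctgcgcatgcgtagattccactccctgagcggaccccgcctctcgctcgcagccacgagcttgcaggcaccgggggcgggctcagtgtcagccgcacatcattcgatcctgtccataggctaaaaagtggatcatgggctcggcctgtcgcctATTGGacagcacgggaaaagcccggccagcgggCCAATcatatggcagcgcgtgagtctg
Dhcr7: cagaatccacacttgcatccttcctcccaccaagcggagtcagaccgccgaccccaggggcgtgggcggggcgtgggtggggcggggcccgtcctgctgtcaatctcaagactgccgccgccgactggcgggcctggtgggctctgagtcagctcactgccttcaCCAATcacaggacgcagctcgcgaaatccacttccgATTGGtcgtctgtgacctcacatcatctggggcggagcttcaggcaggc
A match to these letters is a description of the window and not a measured binding site.

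By the GENCODE M21 annotation of GRCm38, the genes lie on 8 chromosomes, and all 9 are protein-coding. Hmgcs1 (ENSMUSG00000093930) lies at chr13:119690379-119708260 on the + strand and Mvd (ENSMUSG00000006517) at chr8:122433601-122443422 on the - strand. Fdps (ENSMUSG00000059743) lies at chr3:89093588-89101959 and Fdft1 (ENSMUSG00000021273) at chr14:63145150-63179578, both on the - strand. Sqle (ENSMUSG00000022351, chr15:59315077-59331192) and Srebf2 (ENSMUSG00000022463, chr15:82147181-82205379) share a chromosome and the + strand, and Srebf2 holds the microRNA gene Mir33. Lss (ENSMUSG00000033105) lies at chr10:76531588-76557138 on the + strand, Cyp51 (ENSMUSG00000001467) at chr5:4081145-4104746 on the - strand and Dhcr7 (ENSMUSG00000058454) at chr7:143823145-143848410 on the + strand. Cyp51 overlaps Akap9 by 166 bases and Fdft1 overlaps Ctsb, a cathepsin gene, by 774 bases, in both cases on opposite strands. Mvd is covered by the opposite-strand gene model Gm20388 over 9822 bases, and Fdps by the same-strand model Gm43738 over 7512 bases. Opposite-strand antisense models overlap Hmgcs1 (Gm48342, 6190 bases) and Lss (4930483K19Rik, 11268 bases), and the same-strand model Gm49502 overlaps Srebf2 by 2110 bases, which leaves Sqle and Dhcr7 without an overlapping gene. Whether the counting used strand is not given in the sources used here, so reads in these overlaps could belong to either gene.

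The total count per library was 12487129 to 17120202, and with TMM scaling each count stood for 0.0594 to 0.0794 CPM, the unit of counts relative to the scaled library total. Setd2 lay at 99.2 to 120.1 CPM in S and at 53.9 to 87.1 CPM in DDKO, without overlap (log2 fold change -0.77, standard error 0.14, edgeR adjusted p = 0.00756). Smad4, deleted in both groups, lay at 54.3 to 92.7 and 38.2 to 113.8 CPM (log2 fold change 0.13, edgeR adjusted p = 0.819). The 5 epithelial markers Epcam, Cdh1, Krt8, Krt18 and Vil1 summed to 9318 to 10383 CPM in S and 8885 to 10383 CPM in DDKO, whereas the 3 smooth muscle markers summed to at most 2.95 CPM in any library. Genes of 4 marker lists were called between the genotypes by edgeR, where 6.76% of tested genes were called higher and 6.54% lower. Of 8 small-intestinal enterocyte genes, 6 of which passed the filter and were tested, 4 rose (sums 223 to 286 CPM in S, 461 to 860 CPM in DDKO), of 3 enteroendocrine genes 2 rose (50.3 to 79.0 and 141 to 209 CPM), of 5 goblet genes 1 fell, the mucin gene Muc2 (sums 8840 to 26572 and 2561 to 9952 CPM, overlapping), and of 5 stem and crypt genes 1 rose, Olfm4, which had only 8 to 50 counts in the S libraries (sums 138 to 223 and 152 to 278 CPM, overlapping), with no gene of these lists at 0 in every library. Of the other lists DESeq2 also called the colonocyte gene Krt20 and the fibroblast gene Dcn higher, and limma-voom called Krt20 and the proliferation gene Pcna higher and the colonocyte gene Car4 lower. The fibroblast sum was 9.24 to 22.6 CPM in S and 15.4 to 51.8 CPM in DDKO, overlapping. The part of these lists in the results below was not tested, and in bulk RNA fewer cells of a type and less RNA per cell cannot be told apart. The Y-linked genes, namely Kdm5d, Uty, Eif2s3y and Ddx3y, together had 3857 to 4907 counts in DDKO-1, DDKO-2 and DDKO-5 and 0 to 28 in the other 6 libraries, so results are given also for the 4 S and 2 DDKO libraries without them.

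None of the 9 genes passed the test between the genotypes, and the direction of the difference varied along the pathway. In edgeR's quasi-likelihood test, with p-values adjusted by Benjamini and Hochberg's method over all tested genes, 0 of 9 were called at an adjusted p under 0.05, where 13.3% of all tested genes were called. At an unadjusted p under 0.05, 3 of 9 were higher in DDKO (Hmgcs1, Sqle and Cyp51) and 0 lower, against 15.3% of tested genes in each direction and 30.6% in all. That count rested on single libraries, since it was 0 higher without S-2, 0 higher and 2 lower (Mvd and Dhcr7) without S-4, and 5 higher without S-1. DESeq2 called 0 of 9, where it called 10% of genes higher and 9.12% lower, and limma-voom with quality weights called 2 higher, Cyp51 and Hmgcs1, where that tool called 9.61% of genes higher and 10.5% lower. The median log2 fold change of the 9 was 0.22, beside -0.00 for all tested genes, with a range from -0.39 (Dhcr7) to 0.38 (Hmgcs1). In 0 of 9 did the libraries of one genotype lie wholly above those of the other, where 17.2% of tested genes separated in that way.

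Hmgcs1, which makes HMG-CoA from acetoacetyl-CoA, was the most abundant of the 9 and had the largest positive difference. It lay at 549, 344, 383 and 332 CPM in S-1 to S-4 and at 459.7, 503, 570.4, 646 and 438 CPM in DDKO-1 to DDKO-5. Library S-1 lay within the DDKO range, and the other 3 S libraries lay below all 5 DDKO libraries. The means were 402 ± 100.1 CPM in S (SD, n = 4) and 523 ± 85.1 CPM in DDKO (SD, n = 5), and the log2 fold change was 0.38 (standard error 0.17, 95% interval 0.02 to 0.75, edgeR adjusted p = 0.148). Without S-1 the log2 fold change was 0.57 and Hmgcs1 was called (edgeR adjusted p = 0.0375), where 3.41% of genes were called higher. It was 0.29 without S-4 (edgeR adjusted p = 0.307) and 0.31 without S-2 (edgeR adjusted p = 0.309). Over 20 alternative fits its adjusted p ran from 0.0366 to 0.309.

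Mvd and Fdps, the steps to isopentenyl and farnesyl diphosphate, had values below that of Hmgcs1, with that of Fdps close to 0. Mvd lay at 68.1, 52.4, 67.3 and 48.5 CPM in S-1 to S-4 and at 36.9, 36.4, 54.0, 57.8 and 49.6 CPM in DDKO-1 to DDKO-5. DDKO-1 and DDKO-2 lay below every S library and the other 3 DDKO libraries within the S range, giving a log2 fold change of -0.33 (standard error 0.16, 95% interval -0.69 to 0.03, edgeR adjusted p = 0.194). Fdps lay at 159, 114, 153 and 103 CPM in S and at 116, 113, 138, 142 and 132 CPM in DDKO. All 5 DDKO libraries of Fdps lay within the S range, and the log2 fold change was -0.05 (standard error 0.14, 95% interval -0.35 to 0.25, edgeR adjusted p = 0.836). The sign of Fdps was positive in 5 of 20 alternative fits, among them those without S-1 (0.057) and without S-3 (0.030), so it has no settled direction.

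Fdft1, Sqle and Lss carry farnesyl diphosphate through squalene to lanosterol, and each had a higher mean in DDKO with overlapping libraries. Sqle, squalene epoxidase, a flux-controlling oxygenase of the pathway, lay at 215, 151, 185 and 125 CPM in S-1 to S-4 and at 210.1, 204, 225, 233 and 187 CPM in DDKO-1 to DDKO-5. S-1 alone of the S libraries reached the DDKO range, and the log2 fold change was 0.33 (standard error 0.14, 95% interval 0.01 to 0.64, edgeR adjusted p = 0.149). Fdft1, squalene synthase, lay at 183, 124, 152 and 108 CPM in S and at 161, 174, 157, 182 and 152 CPM in DDKO (log2 fold change 0.22, 95% interval -0.08 to 0.53, edgeR adjusted p = 0.301). Its DDKO libraries spanned 1.19-fold and its S libraries 1.70-fold, with S-1 the highest of all 9. Lss, lanosterol synthase, lay at 80.2, 59.6, 70.4 and 52.6 CPM in S and at 78.8, 84.4, 85.6, 83.9 and 56.6 CPM in DDKO (log2 fold change 0.24, 95% interval -0.08 to 0.57, edgeR adjusted p = 0.288). For Lss, DDKO-5 stood below the other 4 DDKO libraries, among the lower S libraries. All 3 values moved with the S library left out. Without S-4 the log2 fold change was 0.11 for Fdft1, 0.20 for Sqle and 0.15 for Lss, and without S-1 it was 0.38 for Fdft1, 0.47 for Sqle and 0.36 for Lss, with 0 of the 3 called by edgeR in either fit.

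Cyp51, which acts on lanosterol, and Dhcr7, which makes cholesterol from 7-dehydrocholesterol, had differences of opposite sign. Cyp51, the sterol C14-demethylase of the pathway, lay at 231, 190.0, 211 and 174 CPM in S-1 to S-4 and at 217, 228, 274, 318 and 235 CPM in DDKO-1 to DDKO-5. Only S-1 reached into the DDKO range, at its lower end, and the log2 fold change was 0.34 (standard error 0.13, 95% interval 0.06 to 0.62, edgeR adjusted p = 0.102), the smallest p of the 9. Over 20 alternative fits its adjusted p ran from 0.0125 to 0.228. Dhcr7, 7-dehydrocholesterol reductase, lay at 155, 120.2, 127 and 108 CPM in S and at 65.7, 79.3, 128, 109.6 and 104 CPM in DDKO. DDKO-1 and DDKO-2 were far below all S libraries, DDKO-5 was just below them, and DDKO-3 and DDKO-4 were within their range. The difference was negative, and the log2 fold change was -0.39 (standard error 0.18, 95% interval -0.79 to 0.01, edgeR adjusted p = 0.169).

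Srebf2, the regulator of the pathway, had the smallest difference between the genotypes after Fdps in the fit over all 9 libraries. It lay at 307, 256, 285 and 226 CPM in S-1 to S-4 and at 276, 249.8, 236, 245 and 245 CPM in DDKO-1 to DDKO-5. The DDKO libraries all lay within the S range, and the log2 fold change was -0.10 (standard error 0.10, 95% interval -0.31 to 0.11, edgeR adjusted p = 0.508). It was -0.025 without S-1 and -0.18 without S-4, where Fdps (-0.15), Fdft1 (0.11) and Lss (0.15) were smaller in size. The interval over all libraries reaches a 1.08-fold higher level in DDKO at most. The mRNA level does not measure cleaved SREBP2.

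**Figure D1:**
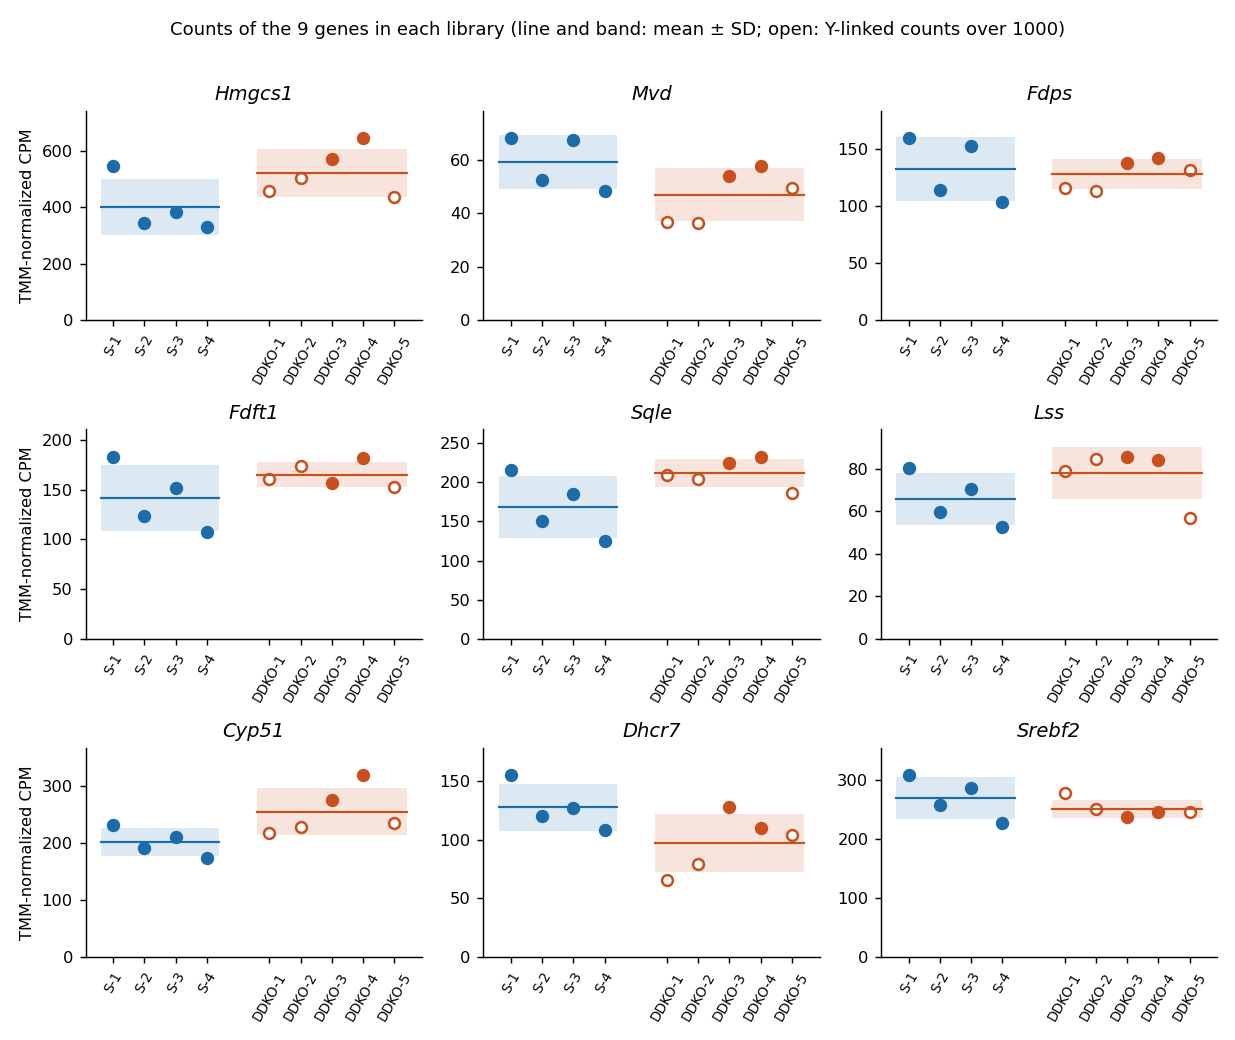
TMM-normalized CPM (vertical axes, starting at 0) of each of the 9 genes in the 4 S libraries (blue) and 5 DDKO libraries (orange). Lines are group means, bands are 1 SD to each side, and open circles are the 3 DDKO libraries with Y-linked counts, which lie below both other DDKO libraries for Hmgcs1, Mvd, Fdps, Sqle, Cyp51 and Dhcr7.

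The levels were set in order per length, as CPM per kilobase of the union of annotated exons (RPKM). In S the mean RPKM was 115 for Hmgcs1, 91.1 for Fdps, 61.2 for Sqle, 52.9 for Srebf2, 51.2 for Cyp51, 38.5 for Dhcr7, 38.3 for Fdft1, 33.6 for Mvd and 14.1 for Lss. Neighbours in this order overlapped in S, except that the highest RPKM of Lss (17.2) was below the lowest of Mvd (27.6). In DDKO the mean RPKM was 150.3 for Hmgcs1, 88.1 for Fdps, 76.8 for Sqle, 64.8 for Cyp51, 49.3 for Srebf2, 44.7 for Fdft1, 29.4 for Dhcr7, 26.7 for Mvd and 16.7 for Lss. There Hmgcs1 stood clear of Fdps (lowest 126 against highest 97.6), Fdft1 stood clear of Dhcr7 (41.2 against 38.6), Cyp51 stood narrowly clear of Srebf2 (55.2 against 54.4), and Lss stood below Mvd. By their means Cyp51 and Srebf2 had exchanged places between the genotypes, as had Fdft1 and Dhcr7, although both pairs overlapped in S. Inside each library Cyp51 was below Srebf2 in every S library, narrowly in S-4 (44.2 against 44.5). It was above Srebf2 in every DDKO library, narrowly in DDKO-1 (55.2 against 54.4). Fdft1 was above Dhcr7 in every DDKO library, with a mixed order in S.

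Within the S group the 9 genes followed the same order of libraries at its ends. S-1 was the highest and S-4 the lowest of the 4 S libraries for 9 of 9 genes, where 9.67% of all tested genes had that order. The level in S-1 over that in S-4 ran from 1.33-fold for Cyp51 to 1.73-fold for Sqle, with a median of 1.52-fold, against 0.998-fold over all tested genes. Of the 13 other enzymes of the pathway, 9 had the same order at both ends. The summed goblet markers had it too, with 26572 CPM in S-1, 10280 in S-2, 11973 in S-3 and 8840 in S-4, and S-4 had the highest leukocyte sum (135 CPM, against 46.1 to 55.4 in the other S libraries) and the lowest total count. The small-intestinal enterocyte sum was highest in S-1 and lowest in S-4 as well (286 and 223 CPM), but most of that sum was Fabp2, which had this order. Sis, Fabp6 and Slc10a2 of the same list were lowest in S-1 and highest in S-2, and Alpi was highest in S-2 and lowest in S-4. The stem and crypt sum ran the other way from the 9 genes (138 CPM in S-1 and 223 CPM in S-4). The part of these measures in the order was not tested. The order was noticed in these data, so it is given as a description.

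The DDKO libraries split by Y-linked counts for most of the same genes. The 3 libraries with Y-linked counts lay below both others for 6 of 9 genes, Hmgcs1, Mvd, Fdps, Sqle, Cyp51 and Dhcr7, where 13.9% of tested genes did so. For Dhcr7 they were at 65.7, 79.3 and 104 CPM against 109.6 and 128 CPM, and for Cyp51 at 217, 228 and 235 CPM against 274 and 318 CPM. Srebf2 went the other way, with the 3 libraries above both others by a small margin (245.3 to 276 CPM against 236 and 244.5 CPM), as 14.4% of tested genes did. Of the 13 other enzymes 5 lay below and 0 above. Some measures outside the pathway divided the same libraries. The stem and crypt sum was 152 to 219 CPM in the 3 libraries and 262 and 278 CPM in the other DDKO libraries. Its genes disagreed. Olfm4 (5.38 to 52.3 against 94.7 and 97.6 CPM) and Lgr5 were lower in the 3 libraries. Axin2 (43.8 to 50.1 against 35.9 and 37.1 CPM) and Ascl2 were higher, and Smoc2 overlapped. The small-intestinal enterocyte gene Sis was at 85.3 to 105 CPM against 211 and 278 CPM. The other genes of that list overlapped, as did the sum of the list (461 to 836 against 696 and 860 CPM). Setd2 and Smad4 were higher in the 3 libraries, with Setd2 at 57.8 to 87.1 CPM against 53.9 and 55.7 CPM and Smad4 at 60.1 to 113.8 CPM against 38.2 and 40.5 CPM. The part of these measures in the split was not tested. All 3 such libraries were DDKO, so among them the genotypes could not be compared.

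With the 4 S and 2 DDKO libraries without Y-linked counts, 2 of the 9 genes were called higher and 0 lower by edgeR, where 9.29% of genes were called higher and 10.1% lower. Cyp51 had a log2 fold change of 0.56 (standard error 0.12, edgeR adjusted p = 0.0125) and Hmgcs1 of 0.60 (standard error 0.18, edgeR adjusted p = 0.0480). In the same libraries 2 of the negative values came close to 0, with -0.08 for Mvd (edgeR adjusted p = 0.737) and -0.10 for Dhcr7 (edgeR adjusted p = 0.646). Fdps turned to 0.08 (edgeR adjusted p = 0.762), and Srebf2 went to -0.16 (edgeR adjusted p = 0.399), the most negative of the 9 there. With a term for the Y-linked counts in the fit over all 9 libraries, Cyp51 alone of the 9 was called (log2 fold change 0.56, edgeR adjusted p = 0.0199), where 4.47% of genes were called higher and 4.33% lower.

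**Figure D2:**
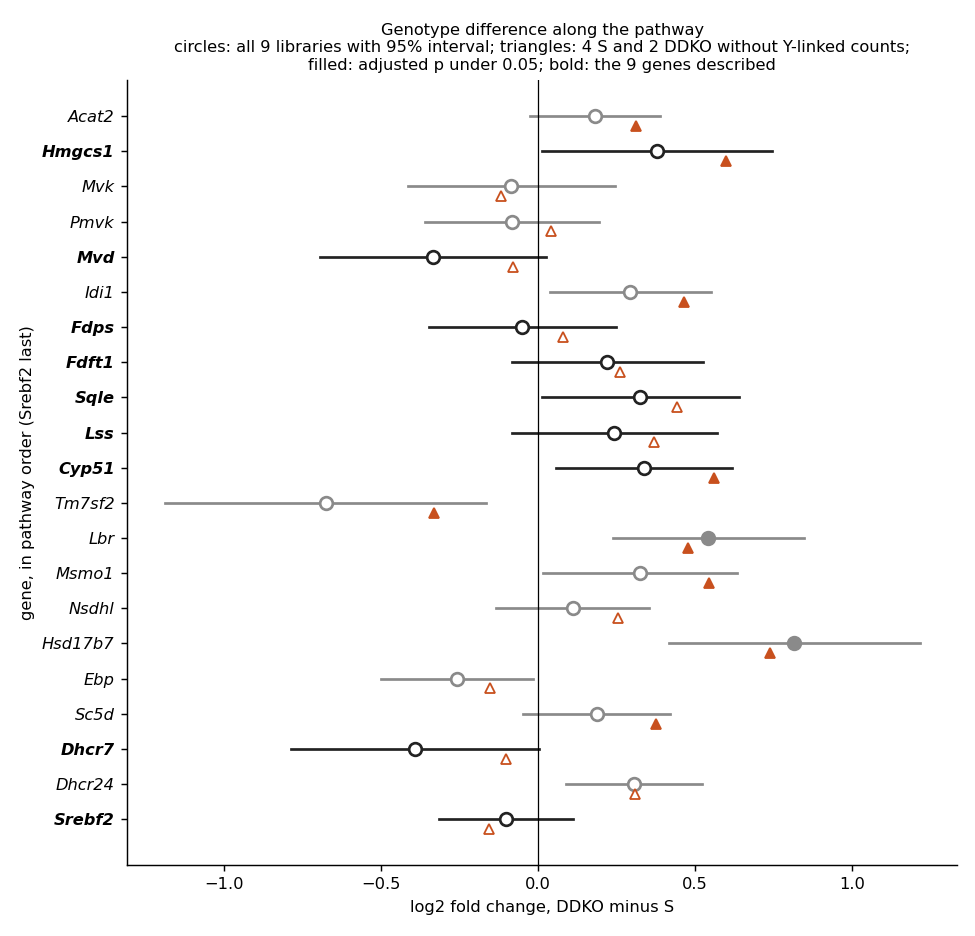
Log2 fold change of DDKO over S (horizontal axis) for genes of the pathway in pathway order, with the 9 genes described in bold. Circles are all 9 libraries with 95% intervals, triangles the 6 libraries without Y-linked counts, and filled symbols an adjusted p under 0.05, which among the 9 genes only the triangles of Hmgcs1 and Cyp51 reached.

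Since the same libraries stood at the ends for all 9 genes in S, the genes were also compared with each other inside each library, as the ratio of a pair of counts, which no library scaling can change. This comparison was chosen after the values were seen and carries no test. Of the 36 pairs among the 9 genes, 13 had ratios that did not overlap between the genotypes, where 18.9% of 9337681 pairs among 4322 tested genes at least as abundant as the least abundant of the 9 did so. The pairs share genes and are not independent. Mvd was relatively lower in DDKO against Hmgcs1, Fdps, Fdft1, Sqle and Cyp51, and Dhcr7 against Hmgcs1, Fdft1, Sqle and Cyp51. Fdps and Srebf2 were each relatively lower against Sqle and Cyp51, which completes the 13 pairs.

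The count of Mvd was 29.5%, 27.6%, 31.9% and 27.9% of that of Cyp51 in S-1 to S-4 and 16.997%, 15.9%, 19.7%, 18.2% and 21.1% in DDKO-1 to DDKO-5. The S libraries thus lay within a narrow band and every DDKO library well below it, a difference of -0.68 in the mean log2 ratio. The count of Cyp51 was 149%, 158%, 166% and 161% of that of Dhcr7 in S-1 to S-4 and 330.0%, 288%, 215%, 290.2% and 226% in DDKO-1 to DDKO-5, a difference of 0.75 in the mean log2 ratio. DDKO-3 and DDKO-4, the libraries without Y-linked counts, were above all S libraries here, as were the other 3. Hmgcs1 stood at 286% to 354% of Dhcr7 in S and 421% to 699.8% in DDKO, again without overlap. Against each other the genes with the 2 most negative differences overlapped between the genotypes, with Mvd at 43.6% to 53.1% of Dhcr7 in S and at 42.3% to 56.1% in DDKO.

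Among the 6 libraries without Y-linked counts, 24 of the 36 pairs did not overlap, where 50.9% of all pairs did not, since 4 against 2 libraries separate easily. Without Cyp51 and Fdft1, which share bases with Akap9 and Ctsb, 7 of the remaining 21 pairs did not overlap. Without Mvd and Fdps, which other gene models cover, 6 of 21 did not, and without all 4 of these genes 3 of 10 did not. Of the 5 genes left there, Hmgcs1, Lss and Srebf2 also share bases with other gene models.

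**Figure D3:**
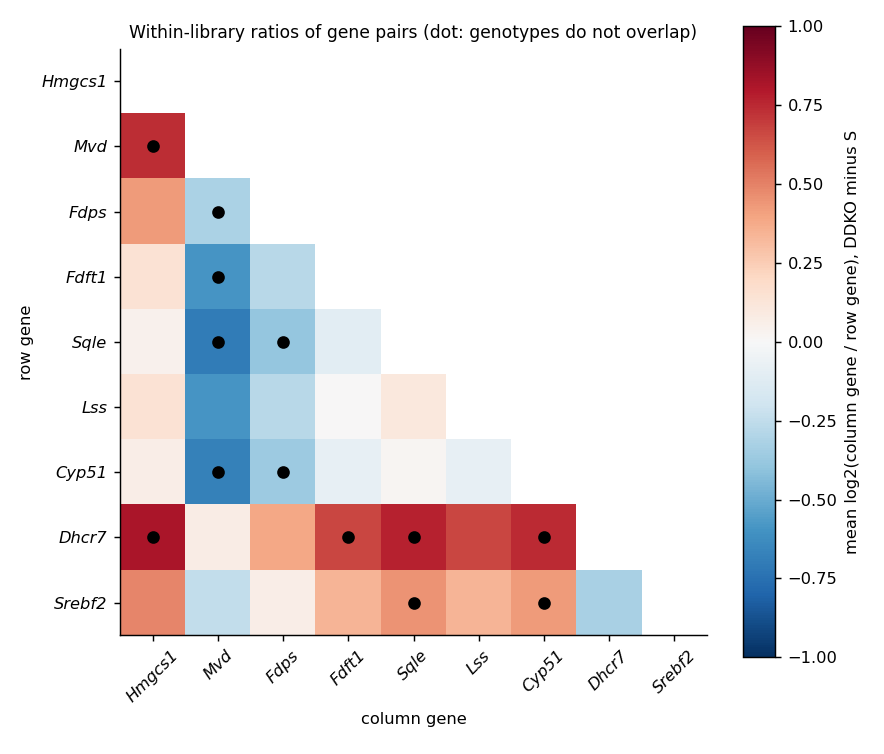
Difference between the genotypes in the mean log2 ratio of the column gene to the row gene, DDKO minus S (colour, log2 units), for the 36 pairs of the 9 genes. Dots mark the 13 pairs whose libraries do not overlap, which gather in the column of Mvd and in the row of Dhcr7.

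The 13 other enzymes of mevalonate and sterol synthesis gave 2 genes higher in DDKO and 0 lower by edgeR, where 6.76% of all tested genes were called higher. By an unadjusted edgeR p under 0.05, 6 of the 13 were higher and 2 lower, against 15.3% of tested genes in each direction. Hsd17b7, a 3-ketosteroid reductase of the sterol C4 demethylation complex, had means of 33.3 ± 6.52 CPM in S (SD, n = 4) and 58.7 ± 13.0 CPM in DDKO (SD, n = 5) and rose by 0.82 on the log2 scale (standard error 0.18, edgeR adjusted p = 0.0159). Only DDKO-5 (40.8 CPM) fell within the S range of 25.6 to 41.4 CPM. Lbr, which carries sterol C14-reductase activity and also anchors chromatin at the nuclear lamina, lay at 106 to 110.0 CPM in S and at 118 to 205 CPM in DDKO, without overlap (log2 fold change 0.54, standard error 0.14, edgeR adjusted p = 0.0276). With each S library or DDKO-4 left out, or with the Y-linked term, Lbr was no longer called (edgeR adjusted p from 0.0576 to 0.122), and Hsd17b7 lost its call narrowly without S-3 (edgeR adjusted p = 0.05002) and with the Y-linked term (edgeR adjusted p = 0.0736). Under that term edgeR instead called Idi1, Msmo1 and Sc5d higher (adjusted p from 0.0450 to 0.0475), all 3 of them enzymes of the same list that were named after their values were seen. Tm7sf2, the other sterol C14-reductase, was named after its values were seen. It lay at 29.4 to 31.7 CPM in S and at 10.9 to 25.3 CPM in DDKO, without overlap, with DDKO-1 and DDKO-2 lowest (log2 fold change -0.68, edgeR adjusted p = 0.0792). DESeq2 (adjusted p = 0.0346) and limma-voom (adjusted p = 0.0400) called it lower, as did edgeR in the libraries without Y-linked counts (adjusted p = 0.0433), where the log2 fold change was -0.33. These were the only 3 of 20 alternative fits that called Tm7sf2. With the Y-linked term it was not called (log2 fold change -0.33, edgeR adjusted p = 0.438).

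**Figure D4:**
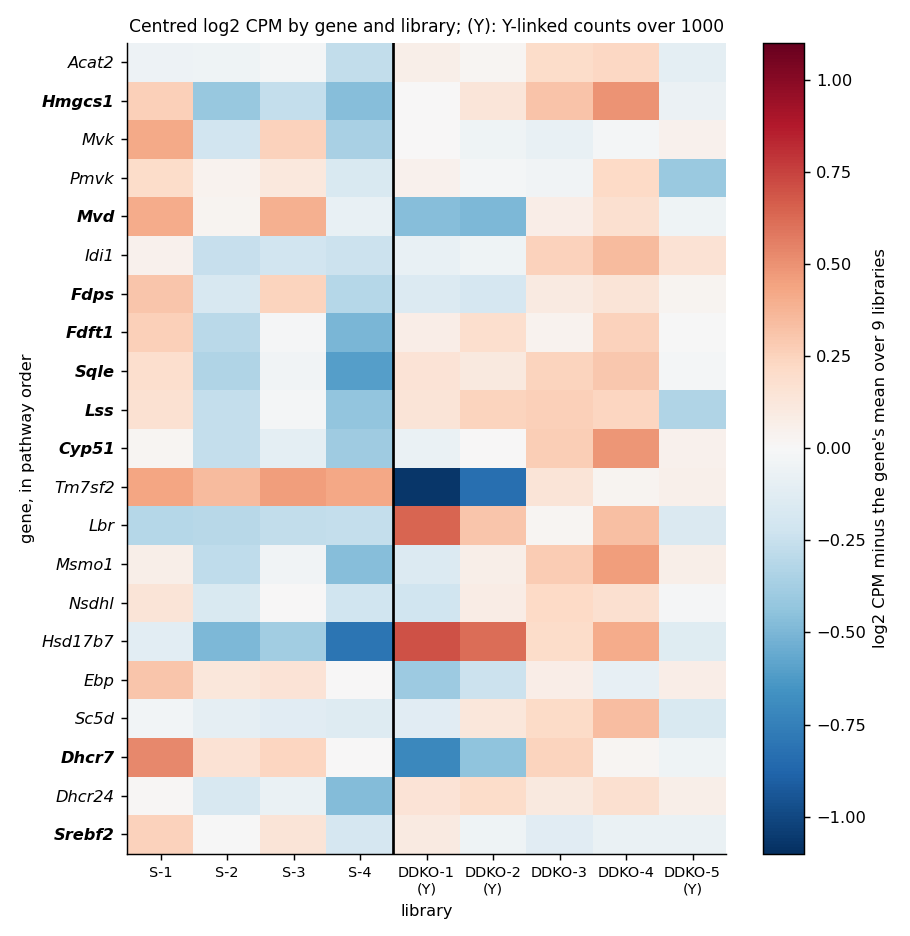
Log2 CPM of genes of the pathway (rows, in pathway order, the 9 described in bold) minus the mean of each gene over the 9 libraries (columns), in colour from -1.1 to 1.1. Most rows are higher in S-1 than in S-4, and Mvd, Tm7sf2 and Dhcr7 are lowest in DDKO-1 and DDKO-2, the columns where Lbr and Hsd17b7 are high.

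The 6 genes of the branches that leave the mevalonate pathway for ubiquinone, dolichol and geranylgeranyl groups gave 0 calls by edgeR, with 1 higher and 0 lower at an unadjusted p under 0.05, where 15.3% of tested genes were so in each direction. DESeq2 called 1 of these higher, Nus1 of the dolichol branch, and limma-voom called 0. Of 13 genes of SREBP processing and its regulators, edgeR called 0 higher and 2 lower in DDKO, where 6.54% of tested genes were called lower. Mbtps2, the protease that makes the second cut in SREBP2, lay at 28.5 to 29.5 CPM in S and at 31.6 to 39.3 CPM in DDKO, without overlap, and was called higher by DESeq2 and by limma-voom but not by edgeR (log2 fold change 0.28, edgeR adjusted p = 0.0598). Scap, the escort of SREBP2, lay at 76.9 to 84.8 CPM in S and at 55.9 to 75.5 CPM in DDKO, without overlap (log2 fold change -0.32, standard error 0.09, edgeR adjusted p = 0.0470), and passed in only 8 of 20 alternative fits. The Scap gene (chr9:110333288-110384950) lies on the same chromosome as Setd2, and the part of linkage to the deleted allele in its difference was not tested. Nr1h2, the sterol-sensing nuclear receptor LXR beta, lay at 79.1 to 90.6 CPM in S and at 56.6 to 75.7 CPM in DDKO, without overlap (log2 fold change -0.39, standard error 0.10, edgeR adjusted p = 0.0244), and passed in 13 of 20. Insig1, which retains SCAP in the endoplasmic reticulum and is itself a target of SREBP2, had a log2 fold change of 0.37 (standard error 0.19, edgeR adjusted p = 0.217), and Srebf1, the paralog that drives fatty acid synthesis, of 0.24 (standard error 0.19, edgeR adjusted p = 0.423). Of 6 further SREBP2 targets edgeR called 0, with 0 higher and 1 lower at an unadjusted p under 0.05, against the same 15.3% in each direction. DESeq2 called 0 of them and limma-voom 1, Stard4, a sterol carrier, which was higher.

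Of 7 LXR targets 2 were called higher by edgeR, against 6.76% of tested genes, and 0 lower, namely Abcg5 (log2 fold change 1.84, edgeR adjusted p = 0.00508) and Abcg8 (log2 fold change 1.79, edgeR adjusted p = 0.00514), the paired exporters of sterol into the lumen. Of 10 genes of fatty acid synthesis under SREBP1, Fads1, a desaturase of polyunsaturated fatty acids, was called higher, where 6.76% of tested genes were (log2 fold change 0.61, edgeR adjusted p = 0.0293), and 0 were called lower.

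The genes closest to the mean profile of the 8 enzymes were sought among 9464 genes of at least 10 CPM, by the mean absolute difference of centred log2 CPM over the 9 libraries. Among the nearest 5 outside the 9 were Nsdhl (0.0776), itself a C4 demethylation enzyme of the pathway, then Mtch2 (0.0889), Pdk3 (0.0911) and Lpcat3 (0.0941). Among the enzymes themselves Fdps was nearest (0.0826), and Mvd (0.219) and Dhcr7 (0.267) were the farthest. Srebf2, which was not part of the mean, stood at 0.151. When each gene was centred within each genotype, so that the genotype difference no longer counted, Msmo1, a sterol methyl oxidase of the pathway, was nearest (0.0475) and Pdk3 came next (0.0756).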

How the data were processed

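Read counts per gene symbol were used as the authors deposited them for 9 libraries, as whole numbers that were neither normalized nor pooled. The submitters' processing notes name HISAT2 2.0 and mm10 without a role, and the counting program, annotation and use of strand are not given in the sources used here. Every library was grouped by its label. Totals were 12487129 to 17120202 counts, and 27 of the 46095 symbols had been turned into dates. R 4.3.3 was used throughout.

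Genes were kept with edgeR's filterByExpr (edgeR 4.0.16), scaled by TMM (factors 0.956 to 1.09) and tested with the quasi-likelihood test (BCV 21.2%) between 4 S and 5 DDKO libraries, without covariates. Standard errors were taken as the size of the log2 fold change divided by the square root of F. Alternatives were DESeq2 1.42.0, limma-voom with quality weights (limma 3.58.1), a robust dispersion, other scalings and filters, each library left out, the replicate number as a block, a term for Y-linked counts, and the libraries without such counts. The procedure was tested on simulated counts.

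The 9 genes and the gene lists were chosen with earlier results of these data known. The ratios, the order of libraries within a group and the split by Y-linked counts were chosen after the values were seen. Outside the 9 genes, the text names Setd2, Smad4, Insig1, Srebf1, members of the pathway lists with an adjusted p under 0.05, up to 4 such genes among LXR targets and fatty acid synthesis, and genes among the 5 most like the enzymes. Some genes that met the rule are not reported here, although counts over lists include every gene tested. Tm7sf2, Mbtps2, Nus1, Stard4, Idi1, Msmo1, Sc5d, Muc2, Olfm4, Krt20, Dcn, Pcna, Car4 and Sis were added after their values were seen. So were Lgr5, Axin2, Ascl2, Smoc2, Fabp2, Fabp6, Slc10a2 and Alpi. Replicate numbers were not used to pair the libraries in the main test, since the labels do not state a pairing. Coordinates are from GENCODE M21 and promoter windows from RefSeq GRCm38.p6. ChIP-seq and other assays of the study were not analysed here.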

Additional observations from a re-analysis of the deposited data

Results flagged for a closer look

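A library far from the others of its group was sought in 58 sets of values, and 3 were found, where chance alone gives about 1 in 20. Lss was at 56.6 CPM in DDKO-5, against 78.8 CPM in the nearest of the other DDKO libraries. Idi1, the isomerase between Mvd and Fdps, was at 30.7 CPM in S-1, against 25.7 CPM in the nearest other S library. Smad4 was at 92.7 CPM in S-1, against 55.4 CPM in the nearest other S library. S-1 was also the highest S library for each of the 9 genes described.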

How the results depend on the processing

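No gene of the 9 was called lower in any alternative, and the number called higher was 2 by limma-voom, 1 with a Y-linked term, 2 in the libraries without Y-linked counts, and 0 to 1 with each library left out (1 without S-1). An adjusted p under 0.1, an unadjusted p under 0.05 with a change beyond 1.5-fold, and separation of the libraries gave 0 of 9. Of the other pathway enzymes (2 called), DESeq2 called 5, limma-voom 7 and the libraries without Y-linked counts 7, with 0 to 4 when each library was left out (0 without S-3, 4 without DDKO-5). Of SREBP regulators and targets (2 called), the counts were 4 by limma-voom, 1 with DESeq2's size factors, 0 with library size alone, 1 without a filter, 1 with a minimum of 10 counts per library, 4 in the libraries without Y-linked counts and 0 to 4 with each library left out (0 without S-2, S-3, S-4, DDKO-3 or DDKO-4, 1 without S-1 or DDKO-2, 4 without DDKO-5). Over all genes (1941 called), limma-voom called 2927, the Y-linked term left 1285, the libraries without Y-linked counts gave 2930, and leaving out an S library or DDKO-4 gave 847 to 1273, lowest without S-3, with 2696 without DDKO-5. Fdps changed sign under limma-voom (0.034), with the Y-linked term (0.078) and in the libraries without Y-linked counts (0.081), and ran from -0.15 to 0.057 with a library left out. Mvk ran from -0.20 to 0.064. Pmvk ran from -0.15 to 0.013 and was 0.041 with the Y-linked term and 0.044 in the libraries without Y-linked counts. The pairs of the 9 genes that did not overlap were 24 in the libraries without Y-linked counts, 7 of 21 without Cyp51 and Fdft1, 6 of 21 without Mvd and Fdps, and 3 of 10 without all 4. Apart from fewer libraries or pairs, the causes were not tested.

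Same-numbered S and DDKO libraries had correlations of their deviations from -0.104 to 0.0878. Such values cannot show whether same-numbered libraries came from littermates or were handled together, which the labels do not state. With the replicate block over numbers 1 to 4, 0 of the 9 genes were called, 3 other enzymes (Hsd17b7 and Lbr among them), 0 regulators and targets and 1581 genes in all, and Pmvk was 0.016. The lowest count of the 9 genes was 511 (Mvd in DDKO-2), and the part of depth in the missing calls was not tested.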
